A study of Bos taurus with 90 samples.

Results

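The miRNAs described here bear names from miR-2286 to miR-2490 or from miR-6119 to miR-6536, in whatever letter or arm form, and are listed in the deposited files for any of 5 cattle tissues. They were taken by number alone, and 55 of the 388 miRNAs listed in at least 1 tissue qualified, from 48 hairpin numbers. Many names in these ranges were given to hairpins first sequenced in cattle, and few of them have a well studied counterpart in human or mouse.

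A miRNA is cut from a hairpin precursor, whose 2 strands give a 5p and a 3p arm. One of these arms usually becomes the guide that Argonaute holds, while the other is degraded, so arms of 1 hairpin can differ widely in level. Many hairpins lie in the introns of protein-coding genes, and the small RNA is then made from the same transcript as its host.

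The 90 samples were rumen epithelium (called rumen here), mammary gland, liver, and duodenum and jejunum, both sourced as epithelium, of 18 Chinese Holstein cows in mid-lactation. The 3 diets were based on alfalfa hay, corn stover or rice straw, with 6 cows and hence 6 samples per tissue on each. No genotype or treatment other than the forage was labelled, so all groups shared breed and lactation stage, and the comparisons were between tissues and between forages within a tissue. Values were CPM, the read count of a miRNA scaled to the reads on all annotated miRNAs of the sample, and a tissue that does not list a miRNA has no value for it.

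Libraries held 937556 to 15621501 miRNA reads (median 5778304.5), taking the step of the low CPM values as 1 read, so that 3 reads equalled 0.192 to 3.20 CPM. These limits cover counting error only. The 3 shallow mammary libraries, alfalfa hay replicate 1 and rice straw replicates 1 and 5, held fewer than 2000000 reads. They differed from the median profile of their tissue by 1.26 to 1.48 on the log2 scale on average, against at most 0.83 for the other 87 libraries. The tissue labels matched their markers: liver miR-122 was 8671 to 12721 CPM in liver, at most 48.5 CPM in the mammary gland and not listed elsewhere, and epithelial miR-205 was 23016 to 52132 CPM in rumen. The intestinal miR-192, miR-194 and miR-215 summed to 144396 to 411412 CPM over duodenum and jejunum and at most 4561 CPM in rumen or the mammary gland, but also reached 122056 to 195995 CPM in liver. In liver alfalfa hay replicate 2 miR-205 reached 1525 CPM, where the median liver library had 1.37 CPM. Its removal changed no call on the miRNAs named here. The sum of 5 white blood cell miRNAs was 16019 to 41970 CPM over duodenum and jejunum against 573 to 10633 CPM in the other tissues, and smooth muscle miR-143 and miR-145 together were 70758 to 296908 CPM throughout. Their part in the differences between tissues was not tested.

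The cattle-numbered miRNAs were listed in fewer tissues than the table as a whole. Of the 55, 22 were listed in all 5 tissues (40% of them, against 74.5% of all 388), 6 in 4 tissues, 3 in 3, 6 in 2 and 18 in a single tissue (32.7%, against 9.28% of all). Rumen listed 43 of them, liver 38, jejunum 34, duodenum 30 and the mammary gland 28. Of all 388 miRNAs these tissues listed 340, 330, 337, 338 and 328, in the same order. Rumen and liver also had the lowest median totals of the 5 tissues, 4001233 and 4427653 reads, against 7883757.5 in duodenum and 7276960.5 in jejunum. The part of depth in these counts was not tested. Each listed miRNA exceeded 1 CPM in no fewer than 9 of a tissue's 18 samples. The reads not assigned to a listed miRNA came to 18.7 to 440 CPM per sample, so an unlisted miRNA is not shown to be absent.

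Outside the 22 and the single-tissue miRNAs, miR-2411-5p, miR-2419-3p and miR-2483-5p were listed everywhere but in rumen, and miR-2346, miR-2376 and miR-2403 everywhere but in the mammary gland. Rumen and liver shared miR-2431-3p, miR-2431-5p, miR-2468 and miR-2474. The others were miR-2313-3p (duodenum, jejunum, mammary gland), miR-2318 (rumen, duodenum, jejunum), miR-6531 (rumen, jejunum, mammary gland), miR-2435 (jejunum, liver) and miR-2316 (rumen, mammary gland). Apart from miR-2411-5p, miR-2483-5p and miR-2318 (5.12 CPM in rumen), the highest tissue mean of each lay between 1.36 CPM for miR-6531 and 3.33 CPM for miR-2403.

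Rumen alone listed 14 miRNAs, and 11 of them were miR-2299-3p, miR-2320-5p, miR-2344, miR-2349, miR-2368-3p, miR-2387, miR-2425-5p, miR-2448-3p, miR-6121-3p, miR-6525 and miR-6527. All lay near the threshold, with rumen means from 1.13 CPM for miR-6525 to 1.91 CPM for miR-6527 and medians of 4 to 7 reads per library. The 5 listed in liver alone, of 11 in the whole table, reached further. miR-2483-3p had a liver mean of 29.2 ± 17.4 CPM (SD, n = 18) and miR-2415-3p one of 8.40 ± 7.66 CPM, while miR-2399-5p, miR-6518 and miR-6521 stayed between 0.812 and 1.92 CPM. miR-2415-3p ranged over the liver samples from 2.08 through a median of 6.46 to 34.9 CPM, the highest in rice straw replicate 3. Jejunum alone listed miR-2320-3p (1.03 ± 0.43 CPM) and miR-6526 (2.89 ± 1.95 CPM), which were the 2 miRNAs of the whole table listed only there. None was among the 4 miRNAs listed only in duodenum or the 5 listed only in the mammary gland. The hairpin miR-2320 thus had its 5p arm listed in rumen and its 3p arm in jejunum, both under 3 CPM in every sample.

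**Figure D1:**
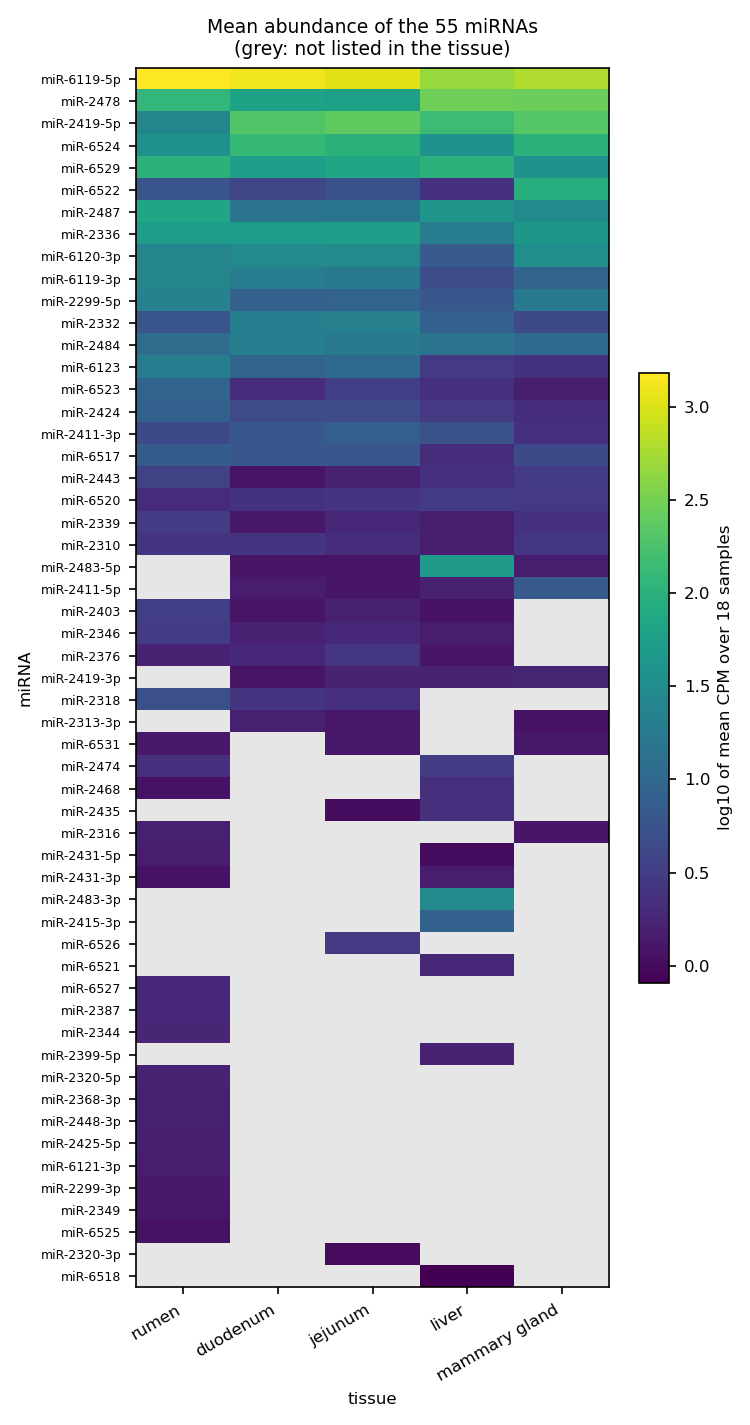
Mean CPM (log10 colour scale, 18 samples per tissue) of the 55 miRNAs (vertical axis) in the 5 tissues (horizontal axis), with tissues that do not list a miRNA in grey. The 22 miRNAs at the top have a value in every tissue, and the 18 with a single coloured cell are at the bottom, 11 of them in rumen.

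Abundance was low. The highest tissue mean had a median of 3.04 CPM over the 55 miRNAs, against 66.0 CPM over all 388. It reached 10 CPM for 16 of them and 100 CPM for 5, and was 1522 CPM for the most abundant, miR-6119-5p. Together they took 0.127% of miRNA reads in liver and 0.212% in rumen, the 2 extremes. miR-6119-5p made up 70.5% of that sum in rumen and 37.5% in liver. Without it the order turned, with mean sums of 601 CPM in rumen, 661 CPM in duodenum, 701 CPM in jejunum, 803 CPM in liver and 913 CPM in the mammary gland. Its hairpin lies in RPL39, which encodes a protein of the large ribosomal subunit.

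miR-6119-5p was highest in rumen and lowest in liver. Its lowest, median and highest values were 488, 1568 and 2302 CPM in rumen and 357, 458 and 599 CPM in liver. The other tissues lay between, with 884, 1339 and 1673 CPM in duodenum, 659, 1068 and 1590 CPM in jejunum, and 174, 650 and 999 CPM in the mammary gland. Rumen, duodenum and jejunum overlapped widely, and all but the lowest rumen library exceeded every liver library. Its tissue means followed those of miR-33a (r = 0.998), its own 3p arm (r = 0.99) and miR-18a (r = 0.99) most closely among the 289 miRNAs listed in all tissues, each over 5 tissue means.

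miR-2478, whose hairpin lies in no annotated gene, was higher in liver and the mammary gland than in the other tissues. Its lowest, median and highest values were 96.6, 264 and 753 CPM in liver and 22.4, 307 and 629 CPM in the mammary gland, against 55.3, 124 and 210 CPM in rumen. Duodenum (23.7, 59.5 and 125 CPM) and jejunum (28.2, 51.8 and 139 CPM) were lowest. The 2 lowest mammary values, 22.4 and 24.5 CPM, came from shallow libraries, and the 15 deeper ones averaged 320 ± 142 CPM. The summed red blood cell miRNAs miR-451, miR-144 and miR-486 also had higher medians in liver and the mammary gland (3421 and 1777 CPM) than in rumen, duodenum and jejunum (455, 449 and 560 CPM), and their part in the levels of miR-2478 was not tested. Its tissue means were most like those of miR-30d (r = 0.99), miR-2285o (r = 0.99) and miR-107 (r = 0.99), again over 5 points.

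miR-2419-5p, also outside any annotated gene, was lower in rumen than elsewhere on average. Rumen samples ran from 4.14 through 23.8 to 45.5 CPM, and jejunum samples from 74.2 through 255 to 489 CPM, with no overlap. Duodenum began at 45.9 CPM, just above the highest rumen sample. The lowest liver and mammary samples, 43.6 and 23.9 CPM, lay within the rumen range. miR-6524, in the translation inhibitor gene PDCD4, averaged 126 ± 21.1 CPM in duodenum and 104 ± 22.04 CPM in jejunum. The mammary gland was near jejunum at 102 ± 57.8 CPM, while rumen had 37.4 ± 6.81 CPM and liver 38.1 ± 6.55 CPM. miR-6529, in the kinase gene GSK3B, was 102 ± 36.3 CPM in rumen and 102 ± 18.8 CPM in liver and lowest in the mammary gland (36.4 ± 9.49 CPM). miR-2487 was 67.8 ± 35.8 CPM in rumen and under 16 CPM on average in both intestinal segments, and the RefSeq table used here has no gene of its name.

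Other miRNAs that reached 10 CPM differed from tissue to tissue to varying degrees. miR-2336 averaged 53.4, 52.8 and 53.4 CPM in rumen, duodenum and jejunum and 19.0 CPM in liver, and miR-6120-3p between 25.2 and 33.8 CPM everywhere but in liver (7.04 CPM). miR-6119-3p fell from 24.9 CPM in rumen to 4.81 CPM in liver. miR-2299-5p had 22.8 CPM in rumen and 17.3 CPM in the mammary gland, miR-6123 had 19.0 CPM in rumen and 2.45 CPM in the mammary gland, and miR-2484 stayed between 10.6 and 20.6 CPM. The remaining 8 miRNAs listed in all tissues had highest means from 2.66 CPM (miR-2310) to 9.25 CPM (miR-6523).

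Of the 37 cattle-numbered miRNAs listed in more than 1 tissue, 3 (8.11%) had a mean at least 3 times that of the next tissue, against 32 of 352 (9.09%) in the whole table. miR-2483-5p, whose hairpin lies in TENM1, a teneurin gene, was 5.43 to 87.9 CPM in liver (median 45.3) and at most 3.65 CPM in any other sample, so its liver mean of 46.8 CPM was 32.3 times that of the mammary gland. Liver corn stover replicate 1 had the lowest values of both miR-2483 arms. miR-6522, in the transcription factor gene NPAS3, was 62.5 to 153 CPM in the mammary gland and at most 9.41 CPM elsewhere. The 15 deeper mammary libraries gave a mean of 90.5 ± 15.6 CPM. miR-2411-5p had a mammary mean 4.31 times that of liver, but its lowest mammary value of 1.34 CPM lay below the highest value of the other tissues, 2.95 CPM. Of the 22 miRNAs listed in all tissues, 12 were highest in rumen (105 of 289 in the whole table). Jejunum had 3 (36 of 289), the mammary gland 3 (62), duodenum 2 (30) and liver 2 (56). The rumen count includes miR-2336 and miR-6529, whose rumen means were only 1.0003 and 1.004 times those of the next tissue.

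**Figure D2:**
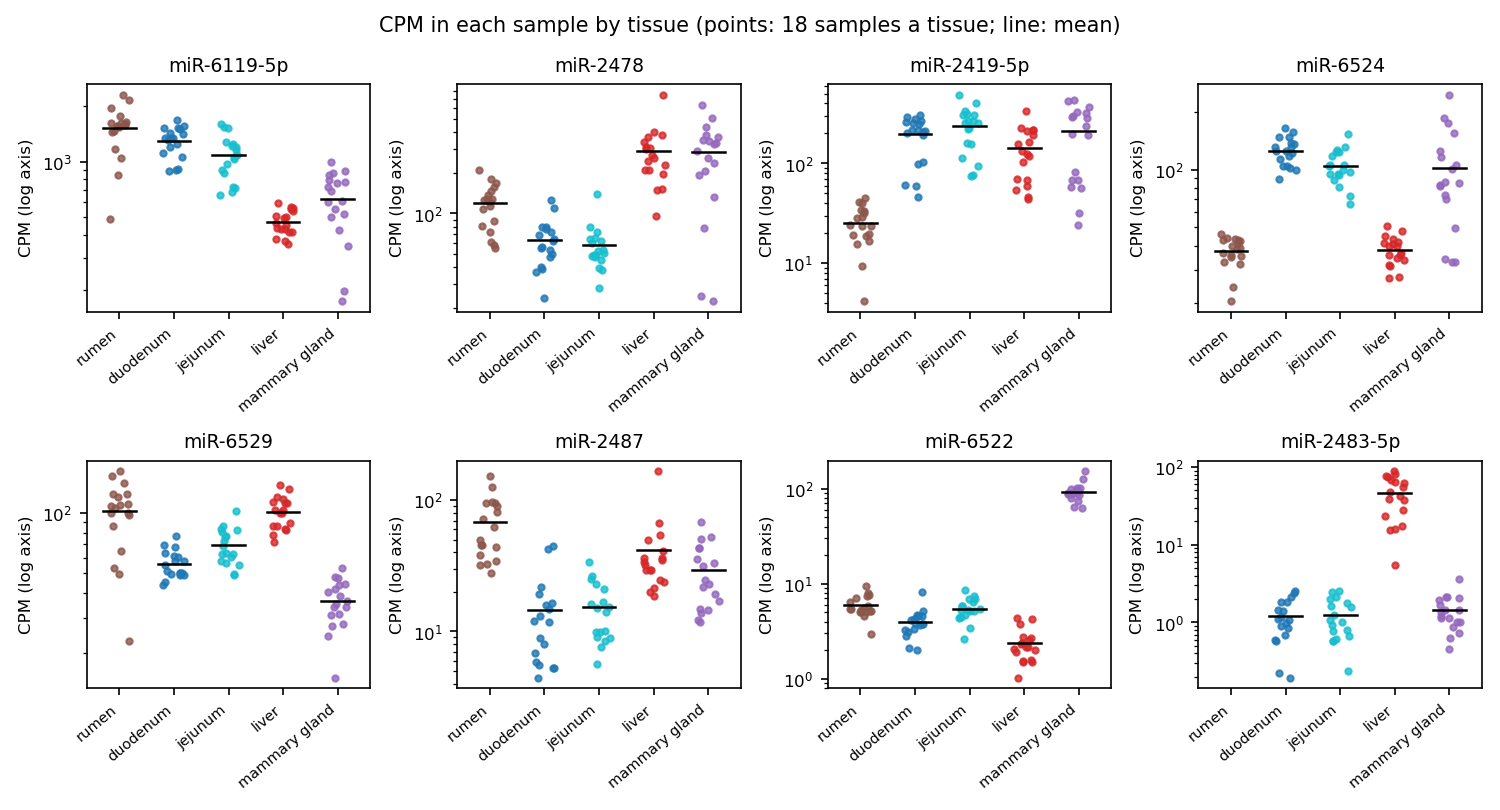
CPM on a log axis in each sample (points, 18 per tissue) with the tissue mean (line), for 8 abundant or tissue-enriched miRNAs. miR-6522 in the mammary gland and miR-2483-5p in liver stand clear of all other tissues, miR-2419-5p is lowest in rumen, and the lowest mammary values of miR-6119-5p and miR-2478 are from shallow libraries.

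RefSeq places 36 of the 48 hairpins within the span of a protein-coding gene, 3 within a long non-coding RNA and 7 in neither, with 1 unplaced and 1 without an entry. Host names are given as annotation. Strand was not compared, so a hairpin may lie antisense to the gene named, and host transcripts were not measured. Several numbers have more than 1 RefSeq entry (miR-6523, miR-6526 and miR-6529), and reads were allowed to map to up to 10 places. Whether their values cover all these entries was not checked.

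Tissues were compared with limma on log2(CPM + 1) over all miRNAs listed in the tissues concerned, and a difference passed at an adjusted p under 0.05. Differences on this scale understate the change of the rarer miRNAs. Each count below stands beside the share of all tested miRNAs that passed in that direction. In whole tissue, fewer cells of a type and less RNA per cell cannot be told apart.

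In rumen against the small intestine, 15 of the 26 cattle-numbered miRNAs tested were higher in rumen (43.4% of all) and 6 were higher in the intestine (31.5%). The largest rises in rumen were those of miR-2487 (log2 difference 2.15 ± 0.22 SE, adjusted p = 1.6e-15), miR-6523 in the autophagy gene EPG5 (1.46 ± 0.12), miR-2299-5p in the glucosyltransferase gene B3GLCT (1.27 ± 0.11), miR-2478 (0.95 ± 0.22) and miR-2443 (0.87 ± 0.13). miR-2419-5p (-3.01 ± 0.27, adjusted p = 3.8e-18), miR-6524 and miR-2332 (-1.59 each), miR-2484 (-0.62) and miR-2376 (-0.31) were higher in the intestine. miR-2336 did not pass, at 0.01 ± 0.10.

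In liver against the small intestine, 5 of 28 were higher in liver (33.2% of all) and 15 in the intestine (51%). Next to miR-2483-5p (4.21 ± 0.18, adjusted p = 7.3e-35) the risers were miR-2478 (2.17 ± 0.22), miR-2487 (1.41 ± 0.22), miR-6529 (0.70 ± 0.12) and miR-2443 (0.42 ± 0.13). The largest falls were those of miR-6120-3p in the casein kinase gene CSNK1G2 (-1.90 ± 0.14), miR-6119-3p (-1.75 ± 0.17), miR-6123 (-1.56 ± 0.12), miR-6524 (-1.56 ± 0.13) and miR-2336 (-1.44 ± 0.10). Against rumen, 5 of 29 were higher in liver (28.3%) and 17 in rumen (53.3%). miR-2419-5p led the first group (2.35 ± 0.31, adjusted p = 6.7e-11), followed by miR-2478, miR-2468, miR-6520 and miR-2474, and miR-6123 the second (-2.40 ± 0.14, adjusted p = 1.2e-28), followed by miR-6119-3p, miR-6120-3p, miR-2299-5p and miR-6523.

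In the mammary gland against the small intestine, 6 of 26 were higher in the gland (40% of all) and 12 in the intestine (41%). miR-6522 led the rises (4.07 ± 0.10, adjusted p = 4.7e-57), followed by miR-2478 (1.90 ± 0.22), miR-2411-5p (1.69 ± 0.13), miR-2487 (0.96 ± 0.22) and miR-2299-5p (0.88 ± 0.11). The falls were led by miR-2332 (-1.92 ± 0.33), miR-6123 (-1.75 ± 0.12), miR-2411-3p (-1.23 ± 0.27), miR-6119-3p (-1.14 ± 0.17) and miR-2424 (-1.02 ± 0.16). Against rumen 5 of 24 were higher in the gland (31.9%), among them miR-6522 (3.77 ± 0.12), miR-2419-5p (2.68 ± 0.31), miR-6524 (1.23 ± 0.15), miR-2478 and miR-6520, and 12 were higher in rumen (49.7%), led by miR-6123, miR-6523, miR-2424, miR-6119-3p and miR-6529. Against liver 9 of 25 were higher in the gland (37.9%), including miR-6120-3p (2.02 ± 0.16) and miR-2299-5p (1.29 ± 0.12), and 5 in liver (30.4%), including miR-6529 (-1.49 ± 0.14). Without the 3 shallow libraries the calls against the intestine, rumen and liver numbered 17, 15 and 13 in place of 18, 17 and 14, and against liver 11 of the 13 were higher in the gland.

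Jejunum and duodenum differed little. Of 30 tested, 2 passed, miR-6523 (0.43 ± 0.14, adjusted p = 0.034) and miR-6522 (0.38 ± 0.12, adjusted p = 0.027), both higher in jejunum (5.14% of all), and 0 were higher in duodenum (5.14%). Neither passed after upper-quartile scaling, where the only one called was miR-6119-5p, lower in jejunum (-0.30 ± 0.11, adjusted p = 0.049).

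The median log2 difference over the cattle-numbered miRNAs was 0.37 for rumen against the intestine (0.15 over all tested), -0.42 for liver against the intestine (-0.36) and -0.25 for the mammary gland against the intestine (-0.02). It was -0.45 for liver against rumen (-0.43 over all tested), -0.32 for the mammary gland against rumen (-0.33), 0.23 for the mammary gland against liver (0.08) and 0.10 for jejunum against duodenum (0.03).

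The split between directions depended on the scaling. After upper-quartile scaling, which moved the median difference of all miRNAs in liver against rumen from -0.43 to 0.21, the calls there split into 11 higher and 11 lower in liver, and 57.0% of the calls over all miRNAs were higher in liver. The same scaling gave 11 higher and 8 lower for rumen against the intestine (49.6% of all calls higher) and 7 and 9 for liver against the intestine (55.3%). It gave 6 and 10 for the mammary gland against the intestine (53.4%), 6 and 8 against rumen (49.1%), and 7 and 11 against liver (36.4%). The differences that passed and are named above kept their sign under every setting tried, whereas that of miR-2336 between rumen and the intestine, which did not pass, became -0.17 ± 0.11 after this scaling.

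The 2 arms of miR-2411, a hairpin in UBAP2L, differed in opposite directions between tissues. The 3p arm was the higher in duodenum (6.22 ± 5.77 against 1.44 ± 0.50 CPM for 5p), jejunum (7.97 ± 6.17 against 1.28 ± 0.45 CPM) and liver (5.19 ± 6.39 against 1.65 ± 0.79 CPM), and the 5p arm in the mammary gland (7.09 ± 3.13 against 2.23 ± 2.39 CPM). 5p exceeded 3p in 17 of 18 mammary samples, but in 4, 0 and 3 of 18 in duodenum, jejunum and liver. The log2 ratio of 5p to 3p was higher in the mammary gland by 2.65, 3.21 and 2.37 than in those tissues (adjusted p = 2.3e-05 in each, two-sided permutation test, 7 arm comparisons, raw p at 1e-05, the smallest that 100000 permutations can give). Rumen listed the 3p arm alone. This comparison was chosen after the values were seen.

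The other hairpins with both arms listed in a tissue had the 5p arm higher, except miR-2431. The 5p arm exceeded the 3p arm in all samples of every tissue for miR-6119 (61.2 to 97.9 times by ratio of means), miR-2419 (83.2 to 164 times), miR-2299 in rumen (16.6 times) and miR-2483 in liver (1.61 times). The miR-6119 ratio was higher in liver than in rumen by 0.52 on the log2 scale (p = 0.0011, adjusted p = 0.0013), than in duodenum by 0.41 (p = 0.0003, adjusted p = 0.00042) and than in jejunum by 0.48 (p = 2e-05, adjusted p = 3.5e-05), in permutation tests. Against the mammary gland it differed by 0.32 (adjusted p = 0.068, permutation tests). miR-2431 had 5p over 3p by 1.27 times in rumen and 0.724 times in liver, with every mean under 2 CPM.

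**Figure D3:**
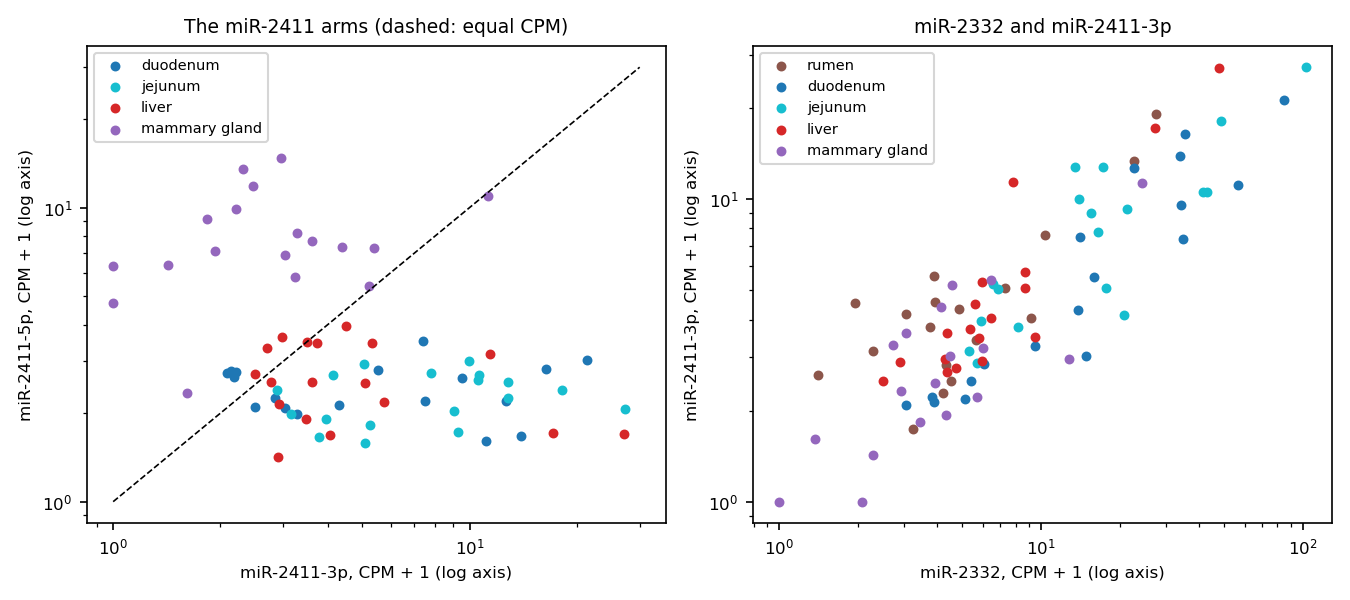
Left, CPM + 1 of miR-2411-5p against miR-2411-3p (log axes, 1 point per sample, 4 tissues) with the line of equal CPM; mammary samples lie above the line with 1 exception and nearly all jejunum, duodenum and liver samples below. Right, CPM + 1 of miR-2411-3p against miR-2332 (log axes, 5 tissues), which rise together within each tissue.

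miR-2332, in the ribosome assembly gene UTP6, was among the most variable of these miRNAs, from 2.05 to 83.4 CPM in duodenum, 4.30 to 102 CPM in jejunum and 1.498 to 47.0 CPM in liver. It varied together with miR-2411-3p, from another hairpin. On log2(CPM + 1), Pearson's r over the 18 samples was 0.93 in duodenum (Spearman's rho 0.93), 0.90 in liver (0.78), 0.83 in jejunum (0.74), 0.78 in the mammary gland (0.69) and 0.78 in rumen (0.51). Adjusted permutation p-values for r were 1.8e-05 in duodenum and liver, 3.1e-05 in jejunum, 0.00015 in the mammary gland and 0.0003 in rumen, and those for rho were 5.5e-05, 0.00027, 0.00092, 0.0022 and 0.032 in the same order, over 11 relations, with unadjusted p-values from 1e-05, the smallest that the permutations can give, to 0.0003 and 0.032. Without the 2 samples farthest from the median of miR-2332, r was 0.91, 0.64, 0.71, 0.55 and 0.43 in that order, so the rumen relation rested largely on those samples. Over deviations from the tissue means in all 90 samples, miR-2411-3p was the closest of 289 miRNAs to miR-2332 (r = 0.86), ahead of miR-2424 (r = 0.59).

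miR-2487 varied in the same way with miR-2904, which is outside the number ranges and averaged 80.3 CPM in rumen and 98.6 CPM in liver. r was 0.95 in jejunum (rho 0.92), 0.94 in liver (0.87), 0.93 in duodenum (0.89), 0.80 in the mammary gland (0.75) and 0.76 in rumen (0.70), with adjusted permutation p-values of at most 0.00023 for r and 0.002 for rho (unadjusted at most 0.00021 and 0.0016). It stayed between 0.70 and 0.93 without the 2 farthest samples. Over deviations from tissue means, miR-2904 (r = 0.88) and miR-2887 (r = 0.82) were the closest to miR-2487. Both relations were looked for after the values were seen, so p-values adjusted over 11 relations alone do not account for that search. Both miRNAs of a pair come from the same libraries and so share their depth.

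miR-2419-5p tended to be low or high in the same replicate numbers across tissues, with exceptions. Rice straw replicate 2 had 4.14 CPM in rumen, 103 CPM in duodenum, 74.2 CPM in jejunum, 46.0 CPM in liver, and 23.9 CPM in the mammary gland, the lowest of 18 in 3 tissues and within the lowest 5 in the others. Alfalfa hay replicate 5 was within the lowest 6 in every tissue, at 9.46, 60.9, 76.8, 54.2 and 68.1 CPM. The lowest of all these values rested on 24 reads. By contrast, the highest rumen and jejunum values, 45.5 and 489 CPM, were those of corn stover replicate 4. Other numbers changed place. Corn stover replicate 2 was the lowest of 18 in duodenum but ranked 11 to 14 from the lowest elsewhere. Alfalfa hay replicate 1 ranked 15 in rumen and 2 in the mammary gland, where its library was shallow. Between tissues, r over the 18 numbers was 0.31 to 0.86 with a median of 0.59 on log2(CPM + 1), as a description of 10 tissue pairs. Spearman's rho was 0.14 to 0.71, lowest for duodenum with the mammary gland. Diet was not removed from these r and rho values, so a shared forage can add to them. The mean rank from the lowest was 12.1 on corn stover, 7.77 on alfalfa hay and 8.63 on rice straw.

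In a limma fit with tissue, diet and their interaction, a term for the replicate number within diet passed for miR-2419-5p (F = 8.40, adjusted p = 6.4e-08). It was the only one of the 22 cattle-numbered miRNAs to pass, and 1.38% of the 289 miRNAs tested did so. Samples of 1 number shared an intraclass correlation of 0.59, and of 0.62 without the shallow libraries (adjusted p = 9.8e-09). The 3p arm, listed in 4 tissues at means of 1.196 to 1.77 CPM, followed it. Averaged over those tissues, the deviations of the arms correlated over the 18 numbers with r = 0.92 and rho = 0.80 (adjusted permutation p = 1.8e-05 and 0.00024, unadjusted 1e-05 and 0.00011), and with r = 0.90 without the 2 farthest numbers. These deviations were from the tissue means, with diet not removed. The labels do not state that equal numbers in different tissues mark 1 cow, and this fit was added after the values were seen.

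miR-2318, in MADD, was listed in rumen, duodenum and jejunum alone. Alfalfa hay replicate 2 had 0 reads of it in all 3, while the other 17 numbers had values in duodenum and jejunum. In a fit on these 3 tissues the number term did not pass for miR-2318 (F = 3.49, adjusted p = 0.060) and passed for miR-2419-5p, 1 of 26 tested (1.29% of 311).

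**Figure D4:**
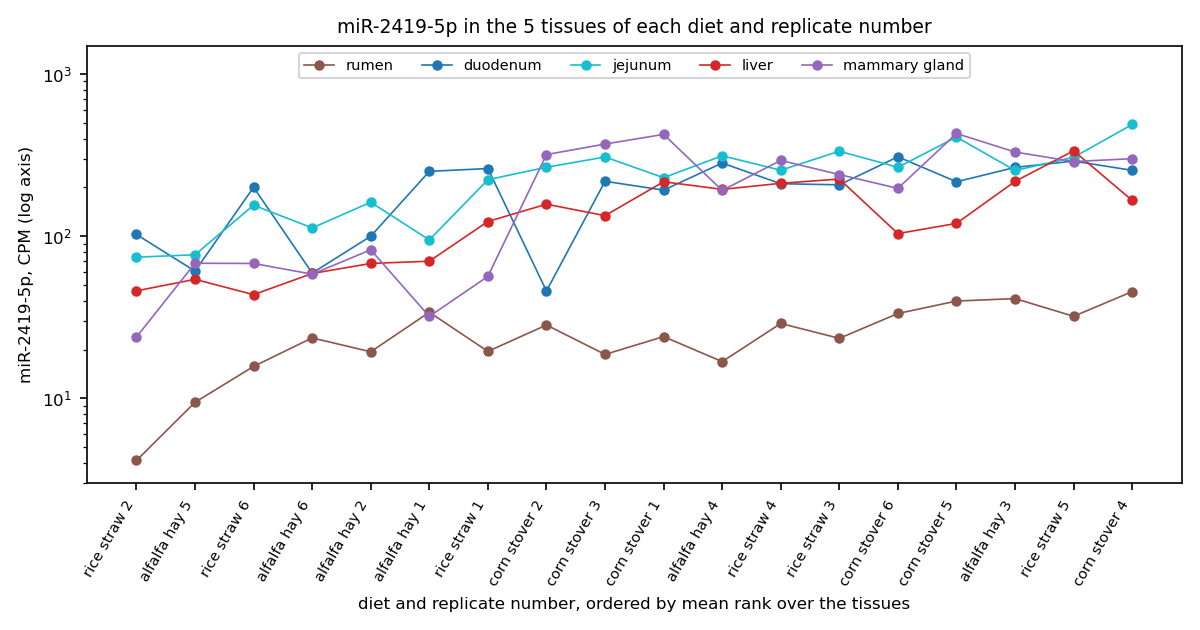
miR-2419-5p in CPM (log axis) for each diet and replicate number, ordered by mean rank over the tissues, with 1 line per tissue. The numbers on the left are low in most tissues, and rumen is the lowest tissue for every number but alfalfa hay replicate 1, where the mammary gland is slightly lower.

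Diet was tested within each tissue by limma's F test over the 3 forages. In jejunum, 3 of 34 passed (8.82%, against 23.7% of all 337 miRNAs listed there). Jejunum corn stover replicates 1, 2 and 6 held 281, 440 and 221 CPM of reads not assigned to a listed miRNA. The highest other jejunum library, corn stover replicate 4, held 72.6 CPM. The same libraries differed most from the median jejunum profile, by 0.398, 0.551 and 0.479 on the log2 scale, with 0.383 next. Their joint part in the 3 calls was not tested. miR-6119-5p ranged from 1205 through a median of 1392 to 1590 CPM on rice straw, from 659 through 845 to 1082 on corn stover and from 724 through 975 to 1222 on alfalfa hay. All rice straw samples lay above all corn stover samples, and the lowest of them was below the highest alfalfa hay sample. The difference between rice straw and corn stover was 0.72 ± 0.15 on the log2 scale (adjusted p = 0.0015, F test adjusted p = 0.0038).

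miR-6120-3p was 26.5, 33.5 and 46.3 CPM (lowest, median and highest) on rice straw, 13.96, 18.7 and 28.9 on corn stover and 21.8, 29.5 and 41.2 on alfalfa hay in jejunum. Corn stover was lower than rice straw by 0.79 ± 0.18 (adjusted p = 0.0028) and than alfalfa hay by 0.62 ± 0.18 (adjusted p = 0.016). Its mean was also higher on rice straw than on corn stover in rumen (31.6 against 23.7 CPM), duodenum (36.5 against 24.1 CPM), liver (8.09 against 5.67 CPM) and the mammary gland (48.8 against 22.7 CPM), where the F test did not pass (adjusted p = 0.17, 0.30, 0.89 and 0.12). The third, miR-2339 in the tRNA-processing gene ELAC2, was 1.98, 3.01 and 4.64 CPM on corn stover, 0.619, 1.69 and 1.93 on rice straw and 0.647, 1.06 and 1.98 on alfalfa hay. It was higher on corn stover than on alfalfa hay by 0.90 ± 0.19 (adjusted p = 0.0025), on 3 to 30 reads per library.

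In the mammary gland 2 of 28 passed (3.66% of all). miR-2443, near the let-7 hairpins MIRLET7A-3 and MIRLET7B, was 3.71, 4.95 and 5.65 CPM on corn stover, above all samples on alfalfa hay (1.07, 2.23 and 3.56) and rice straw (0.533, 1.94 and 2.27). miR-6119-3p was 13.6, 14.7 and 16.5 CPM on corn stover, again above alfalfa hay (3.20, 10.5 and 12.5) and rice straw (0, 4.86 and 8.28). Both had an F test adjusted p of 0.046. Of the 3 shallow libraries 2 were on rice straw, and without the 3 the adjusted p was 0.015 for miR-2443 and 0.029 for miR-6119-3p. Each call was nevertheless lost (adjusted p up to 0.13) in 14 of the 18 fits that left out 1 library, and stayed only without rice straw replicates 2, 3 or 6 or alfalfa hay replicate 1. After upper-quartile scaling neither passed (adjusted p = 0.27 and 0.097), and miR-2299-5p (0.037) and miR-6120-3p (0.037) did, by limma.

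None passed in rumen (0 of 43, 1.47% of all), duodenum (0 of 30, 0% of all) or liver (0 of 38, 0% of all). Unadjusted limma p-values fell under 0.05 for 5 of 43, 5 of 30 and 4 of 38, against 69 of 340, 37 of 338 and 17 of 330 of all miRNAs. The smallest were those of miR-6529, miR-6527 and miR-6120-3p in rumen, miR-6120-3p, miR-2411-5p and miR-2310 in duodenum, and miR-6520, miR-6524 and miR-2487 in liver. miR-6529 in rumen was 22.9, 59.1 and 120 CPM on alfalfa hay, 86.3, 117 and 162 on corn stover and 100 to 142 on rice straw (adjusted p = 0.12).

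**Figure D5:**
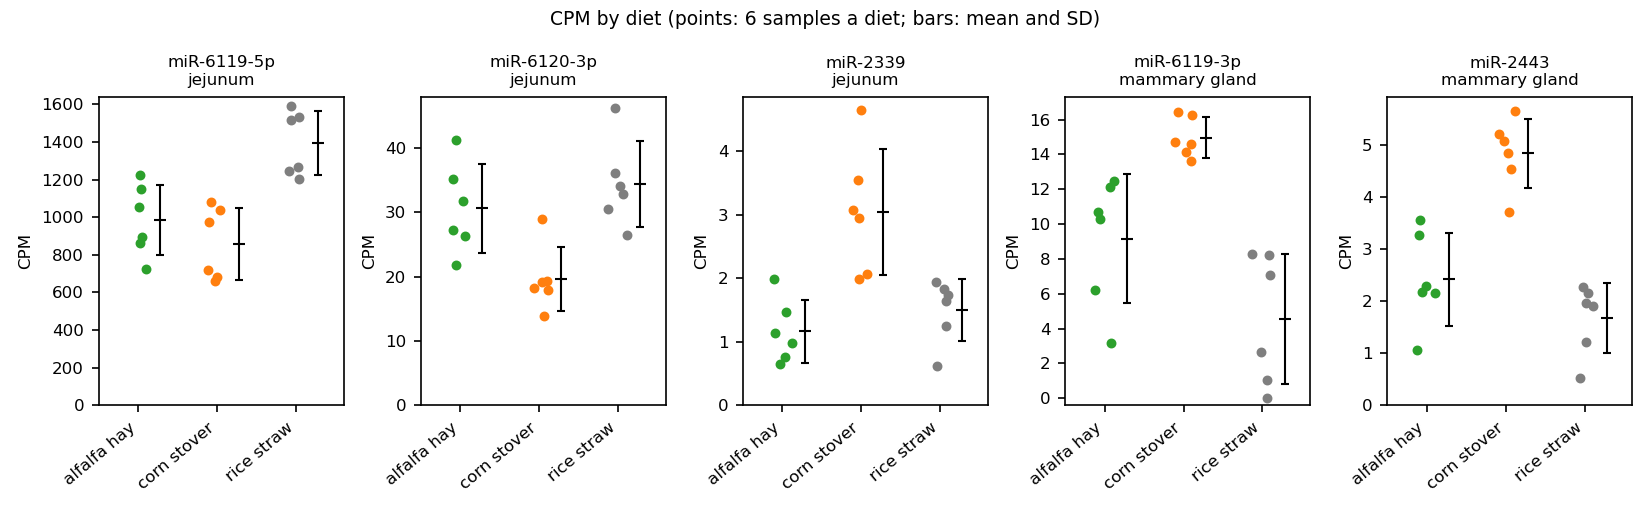
CPM by diet of the 5 miRNAs that passed the diet test, 3 in jejunum and 2 in the mammary gland (points, 6 samples per diet, with mean and SD). Corn stover is lowest for miR-6120-3p and miR-6119-5p in jejunum and highest for the other 3.

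The diet differences themselves differed between tissues for 7 of the 22 miRNAs listed in all 5 (31.8%, against 45.7% of all 289, limma interaction F test). miR-6119-3p (adjusted p = 8.8e-05) averaged 14.96 CPM on corn stover and 4.55 CPM on rice straw in the mammary gland, and 19.2 and 20.6 CPM in duodenum. miR-6119-5p (adjusted p = 0.00090) averaged 859 CPM on corn stover and 476 CPM on rice straw in the mammary gland, and 859 and 1392 CPM in jejunum. miR-6529 (adjusted p = 0.0020) was lowest on alfalfa hay in rumen (68.1 ± 35.2 CPM) and on corn stover in liver (89.2 ± 16.1 CPM). miR-2478 (adjusted p = 0.012) averaged 439 CPM on corn stover against 188 CPM on rice straw in the mammary gland, but was highest on alfalfa hay in liver (365 ± 198 CPM). miR-2299-5p (adjusted p = 0.027) was highest on alfalfa hay in rumen (26.1 CPM) and on rice straw in the mammary gland (23.1 CPM). The other two were miR-2484 (adjusted p = 0.015) and miR-2443 (adjusted p = 0.021). Without the shallow libraries miR-2484, miR-2443 and miR-2299-5p no longer passed (adjusted p = 0.14, 0.068 and 0.062), and after upper-quartile scaling miR-6119-5p, miR-2478, miR-2484 and miR-2443 did not (adjusted p = 0.11, 0.11, 0.18 and 0.63).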

How the data were processed

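Small RNA libraries (TruSeq kit, Illumina HiSeq) were made from total RNA of 5 tissues of 18 cows. Per the labels and the study's methods, the authors removed low-quality reads with CASAVA 1.8, trimmed and aligned reads over 15 nt to bovine precursors of miRBase 22 with sRNAbench (2 mismatches, up to 10 mapping places, minimum read count 2) and deposited CPM, the reads of a miRNA scaled to all reads on annotated miRNAs. Whether reads that map to several places were split is not given in the sources used here, and no batch is labelled.

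Read numbers were estimated from the smallest spacing of a library's low CPM values, of which 100% of its values were multiples (tolerance 0.1 steps). The spacing was taken as 1 read, which was not checked against counts. Values were transformed as log2(CPM + 1) and tested with limma 3.58.1 in R 4.3.3 (trend, Benjamini-Hochberg over all miRNAs tested, threshold 0.05), with a common spread for the tissue comparisons and within each tissue for the diets. Correlations and arm ratios used 100000 permutations (numpy, scipy). The scripts were tested on simulated data. Host genes came from RefSeq (47 of 48 hairpin numbers matched). miRNAs were named if their mean reached 10 CPM, if 1 tissue listed them, if both arms were listed, for the up to 5 largest differences per direction, and, for diet, if they passed or else were among the 3 smallest p. The members and lists were chosen with earlier results of these data known. Where nothing ties a replicate number to a cow, p-values measure the spread between samples, which are of separate cows within a tissue but share cows between tissues.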

Additional observations from a re-analysis of the deposited data

Results flagged for a closer look

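Among the 6-sample diet groups of the miRNAs named for diet, 6 had a highest sample far from the other 5 by Dixon's test, of 42 groups looked at, where chance gives about 1 in 20. These were miR-6527 in rumen on rice straw (4.23 CPM), miR-6120-3p in rumen on alfalfa hay (31.9 CPM), in duodenum on corn stover (34.3 CPM) and in jejunum on corn stover (28.9 CPM), miR-2310 in duodenum on alfalfa hay (5.29 CPM) and miR-2487 in liver on alfalfa hay (166 CPM).

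The effect of diet differed between tissues by an interaction test for miR-6119-3p (adjusted p = 8.8e-05), miR-6119-5p (0.00090), miR-6529 (0.0020), miR-2478 (0.012), miR-2484 (0.015), miR-2443 (0.021) and miR-2299-5p (0.027), by limma over 289 miRNAs. These 7 were 31.8% of the 22 tested, below the 45.7% of all 289. Of them, miR-6119-3p and miR-6529 alone passed both without the shallow libraries and after upper-quartile scaling.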

How the results depend on the processing

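Of 609 values of single miRNAs recomputed under other settings, 45 lost their call and the others kept their side of the threshold. Signs were compared for the differences between tissues only, and none of those changed. The values for diet were F test adjusted p-values, which have no sign. Of the 2 calls of jejunum against duodenum, miR-6522 was the 1 left with a pseudocount of 0.1 CPM, and neither passed after upper-quartile scaling, which called 1 other, miR-6119-5p, in the opposite direction. Of the 22 for liver against rumen, 13 were left among the 18 miRNAs with a mean of at least 5 CPM, a filter that removes tests. The diet calls in jejunum rose from 3 to 6 after upper-quartile scaling and ran from 3 to 6 when 1 library was left out, with 5 or 6 without rice straw replicate 2, alfalfa hay replicates 3 or 4 or corn stover replicate 5. Those in the mammary gland went from 2 to 0 with a pseudocount of 0.1 CPM, to 1 with the 5 CPM filter, and to between 0 and 3 with 1 library left out. The 7 interaction calls became 4 without the samples under 2000000 reads. The shares of all miRNAs called under these settings are not given here, so the shifts cannot be read as particular to these miRNAs. Their cause was not tested.

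With expression set at CPM above 1 in over 50% of samples, 52 of the 55 were expressed in at least 1 tissue, 15 in 1 tissue and 22 in all 5. Above 2 CPM the first count was 33, and above 5 CPM the counts were 22, 7 and 10. The matching shares of the whole table are not given. A ratio of 2 in place of 3 to the next tissue gave 8 enriched miRNAs of 37 (21.6%) in place of 3. That was near the share in the whole table, 75 of 352 (21.3%). Low depth limits the rarer miRNAs, since 3 reads were up to 3.20 CPM. The planned count-based test was not run.

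With the replicate number within diet as a block, jejunum against duodenum had 6 calls. For the diets the block was the number alone, which joins different cows on different forages with no labelled relation. It gave 6 calls in jejunum and 4 in the mammary gland. No other count of calls moved by over 1.5 times with a block, and the shares over all miRNAs are not given for these fits. Over all miRNAs, samples of 1 diet and number in different tissues deviated together with a median r of 0.07 over 180 pairs, of which 82 exceeded 0.1. For other numbers of the same diet the median was -0.02. The deviations were from the mean of each tissue and diet, so this second value follows partly from the first and is no independent baseline. Same-numbered samples of different diets in a tissue exceeded 0.1 in 1 to 11 of 18 pairs. With no label that ties a number to a cow, the numbers were not taken as pairs.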

Other observations

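The liver library with the highest miR-2487, alfalfa hay replicate 1 at 166 CPM, also had the highest liver values of miR-2478 (753 CPM), miR-2332 (47.0 CPM) and miR-2411-3p (26.1 CPM). In the mammary gland miR-2310 reached 10.5 CPM and miR-6522 153 CPM in rice straw replicate 5, a shallow library, and miR-6524 was lowest there too (32.7 CPM).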
